A study of Oryza sativa Japonica Group with 12 samples.

Results

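Early crown root (CR) primordia of rice, the youngest of the CR primordia sampled from the stem base, were compared with stem cortex. By the article, this cortex was taken next to CR primordia of all 3 stages, not of the early stage alone. The comparison rests on 6 arrays of a series of 12, 3 labelled early stage and 3 labelled stem cortex, with biological repetitions 1, 2 and 3 on each side. The other 6 arrays held intermediate and late CR primordia and entered the fit only to estimate the spread and to place the early levels among the later ones. All plants were *Oryza sativa* Japonica cv. Taichung 65, grown untreated in sterile liquid culture and taken 8 days after sowing. Each array held RNA from 1 tissue of 2 stem bases pooled, cut out of 15 µm sections by laser microdissection, and the cortex came from the sections that also gave the primordia. The 4 tissues of a repetition therefore share their plants. Across the series 36643 probe sets were measured, and 24160 genes were compared, each by 1 probe set.

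Crown roots are the roots that a rice plant forms on its stem, and they make up most of its root system. A CR primordium starts from a few stem cells near the vascular cylinder that return to division, and it lays out a root tip with its own stem cells before it grows out through the cortex. In Arabidopsis and rice, PLETHORA (PLT) proteins of the AP2 family and the GRAS proteins SHORT-ROOT (SHR) and SCARECROW (SCR) set up root stem cells and tissue layers, and small peptides such as phytosulfokine act as growth signals between cells. The cortex of the stem base is ground tissue whose cells have stopped dividing, enlarged and formed a vacuole.

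All values are log2 signals, so that a difference of 1 is a 2-fold change. Levels of different genes are not compared, since each probe set has its own scale. Genes rose or fell, in the sense used here, where the limma fit gave an adjusted p under 0.05 and a fold change of at least 1.5. The median change over all 24160 genes was -0.03. Bright probe sets differed among the cortex arrays. The 98th percentile of the signal was 8.74 to 8.76 on the early arrays, against 8.46 on cortex repetition 1, 7.48 on repetition 2 and 7.54 on repetition 3. For the 931 genes with a mean above 6, the early mean lay a median 0.79 above the cortex mean, but 0.28 above cortex repetition 1 and 1.01 above the mean of repetitions 2 and 3. The part of this difference in the results was not tested. The distance to each cortex array is therefore given beside the change against their mean.

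In early CR primordia 411 genes rose and 230 fell, 1.7% and 0.952% of the genes tested. The change exceeded 2-fold in 278 of the rises and 123 of the falls, and 4-fold in 64 and 22 of them. None of these genes overlapped between the 2 tissues. Over all genes, every early array lay above every cortex array for 12.4% and below for 11.6%. A gap of at least 1.5-fold between the nearest early and the nearest cortex array remained for 235 of the rises (57.2%) and 105 of the falls (45.7%), which are 0.973% and 0.435% of all genes. Cortex repetition 1 was the nearest cortex array for 271 of the 411 rises and 121 of the 230 falls. The median change of the risen genes was 0.94 against repetition 1 and 1.40 against repetitions 2 and 3. For the fallen genes it was -0.84 and -1.11. For the 139 bright risen genes the median change was 1.55 against the mean of the 3 cortex arrays and 0.96 against repetition 1, and for the 272 dimmer ones 1.14 and 0.94. Only 2 of the fallen genes were bright, and both kept the 1.5-fold gap.

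**Figure D1:**
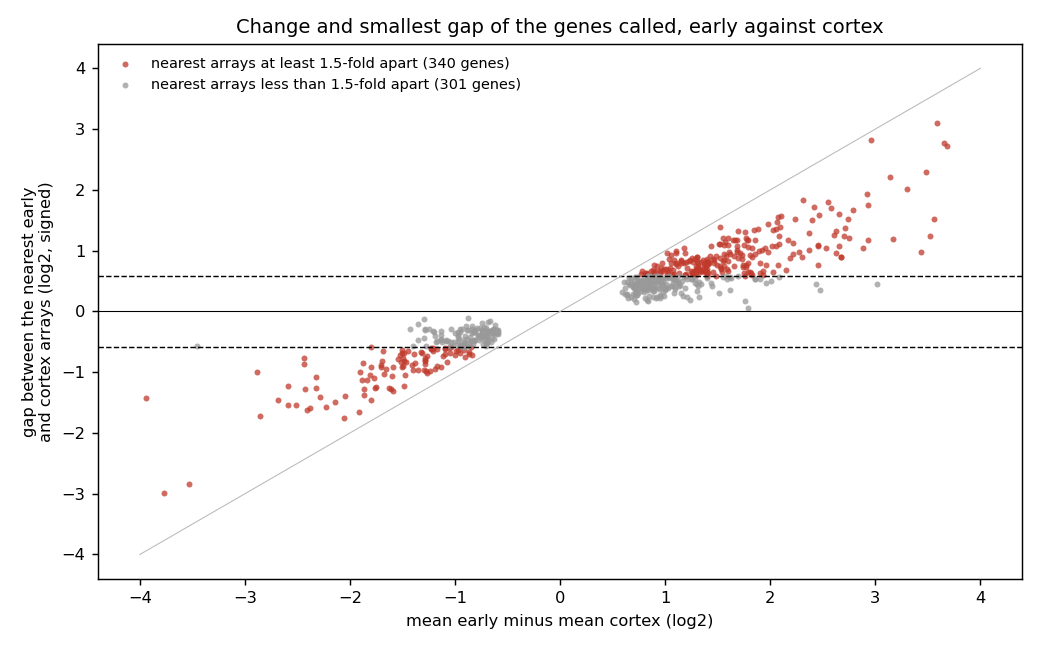
Each point is 1 of the 641 genes that rose or fell. The x axis gives mean early minus mean cortex signal, and the y axis the gap between the nearest early and cortex array (both log2), with the 340 genes that were at least 1.5-fold apart on every pair of arrays in red and the other 301 in grey. Dashed lines mark 1.5-fold, and points on the diagonal would have a gap as large as their mean change.

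The counts rested strongly on the spread that the 12 arrays share and on single arrays. A limma fit of the 6 arrays alone gave 2 rises and 0 falls, with 3664 genes at an unadjusted p under 0.05. After a second quantile normalization, which evens out the bright probe sets, 237 genes rose and 253 fell, and falls then made up the larger share. Without cortex repetition 1 there were 1332 rises and 1004 falls, while the counts were 94 and 93 without cortex 2, 194 and 195 without cortex 3, 268 and 119 without early 1, 49 and 49 without early 2, 34 and 35 without early 3, and 247 and 148 without late 2. Each of the 6 arrays could be left out in turn without loss of the call for 25 risen and 31 fallen genes. The early mean lay at least 1.5-fold from cortex repetition 1 for 366 of the 411 rises and 180 of the 230 falls. The cortex arrays also varied more among themselves than the early arrays, with a larger SD in cortex for 300 of the risen and 186 of the fallen genes.

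Among the regulators of root formation, *PSK1*, *PLT3*, *OsSCR1*, *PLT1* and *OsLOL2* rose. They are 5 of 10 CR regulators, where 1.7% of all genes rose. All of the 10 but *QHB* were listed because the study had named them from these arrays, so this count is not independent evidence of its direction. Of the factors that the study gives as lower in primordia, the list holds the LBD gene LOC4333627 but not *CRL5*, *OsARF5* or *OsTCP7*. Its median depends on that choice. The median change of the 10 was 1.24, and 0.87 against cortex repetition 1. The phytosulfokine precursor gene *PSK1* had 7.08, 7.60 and 7.34 in early primordia, against 3.98, 3.97 and 3.31 in cortex. Every early array was more than 3 units above every cortex array, and *PSK1* rose by 3.59 (SE 0.48, adjusted p = 0.00963). *PLT3* had 6.80, 7.00 and 7.22 in early primordia and 5.76, 3.90 and 2.73 in cortex. The cortex levels were spread over 3 units with repetition 1 the highest, and the change of *PLT3* was 2.88 (SE 0.57, adjusted p = 0.0299) but 1.25 against repetition 1. *OsSCR1* had 4.30, 4.03 and 3.65 in early primordia and 2.73, 2.25 and 2.26 in cortex. Its groups stood 0.92 apart, and it rose by 1.58 (SE 0.26, adjusted p = 0.0161).

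The other members of this group were closer to the cortex. *PLT1* rose by 1.17 (adjusted p = 0.0329), with a gap of 0.26 to cortex repetition 1, and with the replicate block its adjusted p was 0.0502. *OsLOL2*, which encodes a zinc finger protein related to LSD1, had 5.61, 7.02 and 6.41 in early primordia and 5.56, 4.03 and 4.08 in cortex. The lowest early array was only 0.05 above cortex repetition 1, and the adjusted p was 0.0468, or 0.0688 with the replicate block. *OsSHR1*, the rice *SHR* gene, had 6.12, 5.93 and 5.93 in early primordia, against 4.14, 4.55 and 5.35 in cortex. The groups did not overlap, but with cortex repetition 3 high the change of 1.32 (SE 0.36) did not pass (adjusted p = 0.0762). Nor did *PLT6* (1.13, adjusted p = 0.0791), which passed with the replicate block (0.0457), *PLT5* (0.98) or the homeobox gene *QHB* (0.36), a marker of the quiescent centre. The LBD gene LOC4333627, of the family of lateral organ boundaries domain proteins, was the only one of the 10 with every early array below every cortex array (-0.81, adjusted p = 0.064), and after a second quantile normalization its change was -1.42 with an adjusted p of 0.0145.

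Other transcription factors with large changes were found among the genes named for their size. *OsIDD8* encodes a zinc finger protein of the INDETERMINATE DOMAIN family, most similar to Arabidopsis MAGPIE, a partner of SHR and SCR in the root. It had 8.08, 8.58 and 8.76 in early primordia and 4.97, 4.50 and 6.06 in cortex. All early arrays were at least 2.02 above the highest cortex array, and *OsIDD8* rose by 3.30 (SE 0.42, adjusted p = 0.00877). Chosen after their values were seen, the GATA-type zinc finger gene LOC4327810 rose by 1.70 and the DNA-binding protein gene LOC4336818 by 1.77, both with an adjusted p of 0.00705 and gaps of 1.31 and 1.21. *PCF2*, a TCP factor that in rice binds the promoter of the replication gene *PCNA*, rose by 1.44. *OsTCP7* of the same family fell by 2.44 (SE 0.55, adjusted p = 0.0465), with 4.47, 6.09 and 4.94 in early primordia and 7.53, 6.95 and 8.34 in cortex. *OsGRF6*, a growth-regulating factor, rose by 1.39 (adjusted p = 0.0261) and was the only one called of 11 such factors, where 1.7% of all genes rose. LOC4352256, similar to *GIF3*, a coactivator of these factors in Arabidopsis, rose by 2.17 (adjusted p = 0.0499).

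**Figure D2:**
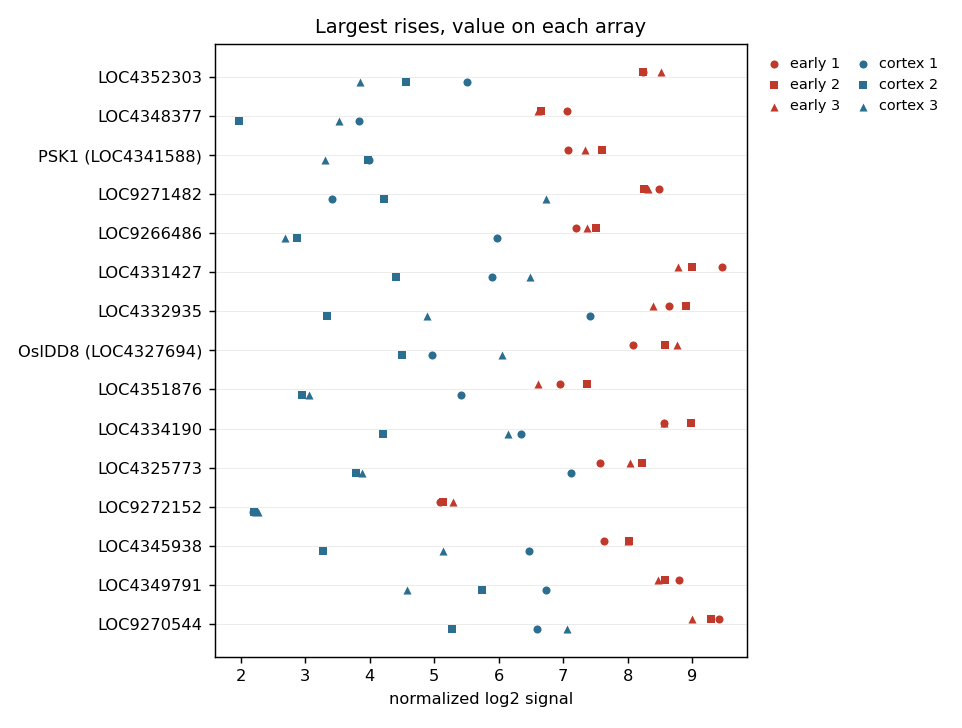
Log2 signal on each early and each cortex array for the 15 genes with the largest rise. The 3 early values of each gene lie above its 3 cortex values, and the cortex values of several genes spread over 2 units or more.

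The largest rise belonged to LOC4352303, which encodes a protein with a SWIB domain, a fold found in chromatin remodelling complexes and in plant organelle proteins. It had 8.23, 8.24 and 8.51 in early primordia, against 5.51, 4.57 and 3.85 in cortex. The nearest arrays were 2.72 apart, and the change was 3.68 (SE 0.47, adjusted p = 0.00877), or 12.9-fold. All 4 genes described as SWIB proteins rose, LOC4334190 by 3.14, LOC4328187 by 1.60 and *OsSWIB* by 0.88, and 3 of them kept the 1.5-fold gap. Descriptions were held for 1071 genes, taken from the study's own list of changed genes, of which 238 rose and 122 fell with a median change of 0.81. Groups drawn from descriptions were chosen after values had been seen and give no independent evidence of a direction. Other chromatin genes that rose were *MSI1*, encoding a histone-binding WD40 protein of chromatin assembly (1.32, adjusted p = 0.0368), *SPT16*, a histone chaperone gene (1.20), and *OsAGO4a* and *OsAGO4b*, Argonaute genes of RNA-directed DNA methylation (0.70 each, *OsAGO4b* with an adjusted p of 0.0527 with the replicate block). *MSI1* was at 7.10, 7.36 and 7.52 in early primordia and 6.19, 5.40 and 6.42 in cortex, and after a second quantile normalization its adjusted p was 0.295. The SWI3-type remodelling gene *OsSWI3C* did not pass (0.37, adjusted p = 0.461).

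Histones are the proteins that DNA is wound on in chromatin. Of 10 genes described as core histones, all from the study's own list of changed genes, 5 rose and 3 of these kept the 1.5-fold gap. Of all 1071 described genes, 238 rose and 141 of these kept that gap. The other 5 did not pass (adjusted p of 0.0585 to 0.113), and the lowest change among the 10 was 0.63. Their median change was 1.31, and 1.42 against cortex repetition 1. The histone H4 gene LOC4331427 had 9.47, 8.99 and 8.79 in early primordia and 5.90, 4.40 and 6.49 in cortex. No early array came within 2 units of a cortex array, and the change was 3.49 (SE 0.63, adjusted p = 0.022). A gene described as histone H3.2, LOC4349820, had 4.53, 5.58 and 4.46 in early primordia, against 2.19, 2.12 and 2.87 in cortex. It rose by 2.46 (SE 0.33, adjusted p = 0.00963) and kept its call with any of the 6 arrays left out. Near-identical histone genes can share probes, so that a single histone gene's share of its signal is uncertain.

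Of the 29 cell cycle genes listed 3 rose and none fell, where 1.7% of all genes rose and 0.952% fell. Their median change was 0.36, and 0.26 against cortex repetition 1. *KRP5* encodes an inhibitor of cyclin-dependent kinases and had 7.38, 7.47 and 8.02 in early primordia, against 5.21, 4.25 and 5.69 in cortex. It rose by 2.57 (SE 0.46, adjusted p = 0.0212), with 1.70 between the nearest arrays. *CDKB2-1*, a plant-type kinase gene of mitosis, rose by 1.76 (adjusted p = 0.0219) and *CKS1*, the gene of a small subunit bound by these kinases, by 1.57 (adjusted p = 0.0161). Both stood more than 1 unit clear of the cortex. Of 30 DNA replication genes only *OsRPA14*, a subunit of the single-strand binding protein RPA, passed the test, with a change of 1.89 (SE 0.35, adjusted p = 0.0249). However, 20 of the 30 lay above cortex on every array, against 12.4% of all genes, and the median change of 0.39 was 0.43 against cortex repetition 1. *CDC45* (LOC4351377), a part of the replicative helicase outside that list, had 5.38, 5.20 and 5.83 in early primordia and 3.22, 3.49 and 2.46 in cortex and rose by 2.41 (adjusted p = 0.0153). Of single genes of the cytoskeleton, chosen after their values were seen, the tubulin genes *TUB2* (1.41, adjusted p = 0.145 after a second quantile normalization) and *OsTUB6* (1.30), the formin gene *OsFH14* (1.98) and the kinesin gene *KIN14A* (0.66, adjusted p = 0.0639 with the replicate block) rose, whereas the actin depolymerizing factor gene *OsADF5* fell by 1.21.

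By their list mean, ribosomal protein genes of early primordia lay nearer to cortex repetition 1 than to the other cortex arrays. Of 22 with a symbol 3 rose, *RPS27AB*, *RPS26* and *RPL27*, and 12 lay above every cortex array, where 1.7% of all genes rose and 12.4% lay above, and the median change of 0.55 was 0.23 against cortex repetition 1. The mean of the list was 6.67 to 6.75 on the early arrays, against 6.41, 5.62 and 5.85 on cortex repetitions 1, 2 and 3. *RPS27AB*, a ubiquitin and ribosomal protein fusion gene, had 9.18, 9.39 and 9.49 in early primordia and 7.83, 6.85 and 7.84 in cortex. It rose by 1.85 (SE 0.23, adjusted p = 0.00877) with 1.34 between the nearest arrays, and its adjusted p after a second quantile normalization was 0.0621. *RPS26* rose by 1.56 (adjusted p = 0.00963), and under that normalization it still passed (0.0276). *RPL27* rose by 0.84 (adjusted p = 0.0379), but the adjusted p was 0.0507 with the replicate block, and after a second quantile normalization the change was 0.24 (adjusted p = 0.449). Whether its product belongs to the ribosome of the cytosol or of the plastid was not settled. Among 55 genes whose description names a 40S or 60S ribosomal protein, 17 rose, 9 with the 1.5-fold gap, where 238 of the 1071 described genes rose. Of the 55, LOC4333960, which rose by 1.36, is similar to a mitochondrial ribosomal protein. The median of the 55 was 1.26, and 0.39 against repetition 1. LOC4349791, described as a 60S subunit gene, changed most among them, with 8.79, 8.58 and 8.48 in early primordia and 6.73, 5.75 and 4.57 in cortex (2.93, adjusted p = 0.0142). None of the 7 translation factor genes passed, with a median change of 0.42.

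The box H/ACA ribonucleoprotein, which guides pseudouridine formation in ribosomal RNA, had 3 described subunit genes, and all 3 rose. Of all 1071 described genes, from the study's own list of changed genes, 238 rose. LOC4332935, similar to the pseudouridine synthase NAP57, had 8.64, 8.90 and 8.40 in early primordia and 7.41, 3.34 and 4.89 in cortex. Cortex repetition 1 was near the early arrays, and the change was 3.43 (SE 0.76, adjusted p = 0.0438) but 1.23 against that array. After a second quantile normalization its adjusted p in limma was 0.0697, and it kept its call in 1 of the 6 fits that left out an array. The *GAR1* gene LOC4350782 rose by 2.30 and the *NOP10* gene LOC9269830 by 0.85 (adjusted p = 0.0562 with the replicate block). Of 5 described small nuclear ribonucleoprotein genes, which build the spliceosome, 2 rose, and the splicing factor gene *Os-RSZ21a* rose by 1.69 (adjusted p = 0.0119) with a gap of 0.97. Proteasome genes with a listed symbol did not pass (9 genes, median 0.13), although *OsPBD1* (1.08) and *OsPAE1* (0.96), named outside the list, encode proteasome subunits and rose.

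Cell wall and cell surface genes went both ways. LOC4348377, described as weakly similar to a glycosyl hydrolase of family 17 and as an X8 domain protein, had 7.06, 6.65 and 6.61 in early primordia, against 3.84, 1.98 and 3.53 in cortex. It rose by 3.66 (SE 0.75, adjusted p = 0.0322), with 2.76 between the nearest arrays. Of the 4 genes described by that family, LOC4328252 rose as well (1.30, adjusted p = 0.0206), while LOC4328645 (-0.54) and LOC4333617 (-0.83) did not pass. LOC4334157, similar to *PDCB3*, whose Arabidopsis product binds callose at plasmodesmata, had 7.05, 7.13 and 7.23 in early primordia and 4.71, 5.22 and 4.56 in cortex and rose by 2.31 (adjusted p = 0.0162). *OsGLU13*, an endoglucanase gene, rose by 2.37, the COBRA-like gene *BC1L2* by 1.46 and the fasciclin-like arabinogalactan protein gene *OsFLA1* by 1.60. *OsFLA7* of that family fell by 2.23, with 5.70, 5.36 and 5.02 in early primordia and 7.28, 7.97 and 7.54 in cortex. *OsXTH8* (LOC4345019, also *OsXRT5*), a xyloglucan transferase gene of wall loosening, had 4.07, 5.18 and 4.15 in early primordia, against 7.08, 7.70 and 5.95 in cortex. It fell by 2.44 (SE 0.40, adjusted p = 0.0161), and the nearest arrays were 0.77 apart. Of 46 expansin genes only *OsEXPB4* passed, with a rise of 0.90 (adjusted p = 0.0379), where 1.7% of all genes rose. The list median was -0.06. *OsGT43C*, of the xylan synthesis family, fell by 1.10, the pectin methylesterase inhibitor gene *OsPMEI28* by 1.13, and the coumarate-CoA ligase gene *4CL-3*, of the lignin pathway, by 0.60 (adjusted p = 0.0456, and 0.0536 with the replicate block). No other of the 35 lignin pathway and peroxidase genes listed passed, although *prx54*, a peroxidase gene outside the list, fell by 0.88 (adjusted p = 0.0612 with the replicate block).

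**Figure D3:**
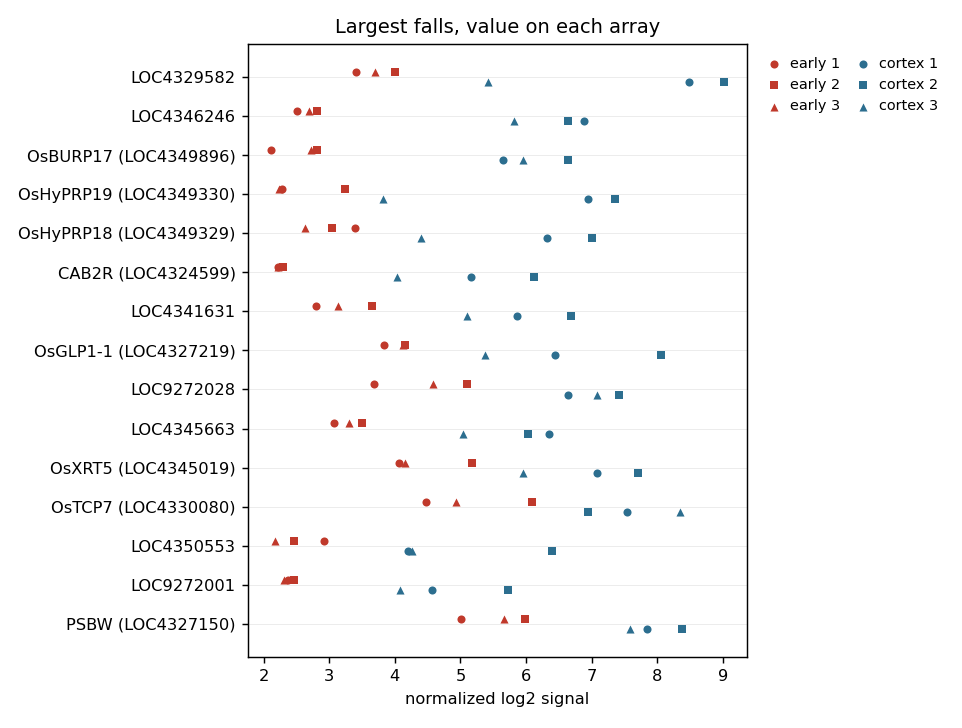
Log2 signal on each early and each cortex array for the 15 genes with the largest fall. Early values are below all cortex values in each gene, and cortex repetition 3 is the nearest to the early arrays for several of them.

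LOC4329582, the gene with the largest fall, encodes a protein of the HIN1 family, named after a tobacco gene induced by the bacterial elicitor harpin. It had 3.40, 4.00 and 3.69 in early primordia, against 8.48, 9.02 and 5.43 in cortex, and fell by 3.95 (SE 0.82, adjusted p = 0.0332), or 15.4-fold. All 3 described HIN1 genes fell, the others by 1.39 and 0.69, where 122 of the 1071 described genes fell. *OsBURP17*, which carries a BURP domain as found in secreted wall proteins and the Arabidopsis gene *RD22*, had 2.11, 2.81 and 2.72 in early primordia and 5.65, 6.64 and 5.96 in cortex. It was low on all early arrays and fell by 3.54 (SE 0.26, adjusted p = 0.000745), which was 3.11 against cortex repetition 1. LOC4346246, with neither a name nor a description, had 2.50, 2.82 and 2.69 in early primordia, against 6.88, 6.64 and 5.81 in cortex (-3.77, adjusted p = 0.000745). It and *OsBURP17* had the lowest adjusted p of all genes.

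Of 7 genes described as protease inhibitor, seed storage or lipid transfer proteins, small cysteine-rich secreted proteins, 6 fell. Of all 1071 described genes, which come from the study's own list of changed genes, 122 fell. The hybrid proline-rich protein genes *OsHyPRP19* (-3.45) and *OsHyPRP18* (-2.88) and the similar gene LOC4349331 (-1.29) follow each other in the reference gene table on chromosome 10. *OsHyPRP19* had 2.28, 3.24 and 2.23 in early primordia and 6.94, 7.35 and 3.81 in cortex. Its cortex repetition 3 was only 0.57 above the highest early array, so it did not keep the 1.5-fold gap that its 2 neighbours kept. The germin-like gene *OsGLP1-1*, of a family of apoplastic proteins, had 3.83, 4.15 and 4.12 in early primordia and 6.44, 8.06 and 5.37 in cortex and fell by 2.59 (SE 0.50, adjusted p = 0.0268).

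Of 8 listed photosynthesis genes 3 fell, *CAB2R*, *PSBW* and *CAB1R*, all with the 1.5-fold gap, where 0.952% of all genes fell and 0.435% fell with that gap, and the median change of -0.98 was -0.88 against cortex repetition 1. *CAB2R* encodes a chlorophyll a/b-binding protein of the light-harvesting antenna and had 2.22, 2.30 and 2.21 in early primordia, against 5.16, 6.12 and 4.03 in cortex. The early arrays agreed within 0.1, near the low end of the signal, and *CAB2R* fell by 2.86 (SE 0.38, adjusted p = 0.00963). *PSBW*, a photosystem II subunit gene, had 5.01, 5.99 and 5.67 in early primordia and 7.84, 8.38 and 7.58 in cortex (-2.38, SE 0.29, adjusted p = 0.00839). Photosystem I subunit genes fell too, LOC4334300 (*PSAF*) by 1.84, LOC4351694 (*PSAN*) by 1.63 and LOC4352085 (*PSAL*) by 1.59. Of 9 genes described as photosystem or light-harvesting proteins 6 fell, where 122 of the 1071 described genes did. The antenna genes LOC4324705 (-0.80, adjusted p = 0.1), LOC4333359 (-0.87, adjusted p = 0.0747) and LOC4336028 (-1.10, adjusted p = 0.0509) did not pass. *OsGLK1*, a transcription factor gene for chloroplast development, fell by 0.78 (adjusted p = 0.0331). The mean of the 8 listed genes was 2.83 to 2.90 on the early arrays and 3.83 to 4.75 on the cortex arrays. In pooled tissue, fewer green cells and less of these RNAs in each cell cannot be told apart.

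Aquaporins are membrane channels for water, and 2 of 28 fell, where 0.952% of all genes did. Of the 28, 9 lay below cortex on every array, as did 11.6% of all genes. *OsPIP1;1*, a channel of the plasma membrane, had 4.85, 5.27 and 5.21 in early primordia, against 6.51, 6.31 and 6.29 in cortex. The groups stood 1.02 apart with little spread in either, and it fell by 1.26 (SE 0.16, adjusted p = 0.00877). *OsTIP1;1*, a channel of the vacuole membrane, had 4.43, 4.40 and 4.80 in early primordia and 6.17, 6.45 and 6.61 in cortex (-1.87, SE 0.41, adjusted p = 0.0436). Further transcription factor genes that fell were *ONAC041* of the NAC family (-1.88, adjusted p = 0.00705), the mini zinc finger gene *OsMIF2* (-1.36, adjusted p = 0.0133) and *OsHox16* of the homeodomain leucine zipper family (-1.29, adjusted p = 0.0166), and all 3 kept the 1.5-fold gap. Of 32 homeobox genes listed by symbol, 1 fell, the KNOX gene *OSH3* (-0.76, adjusted p = 0.0464, and 0.0582 with the replicate block).

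Among hormone genes, the auxin influx carrier gene *OsLAX4* had 5.19, 4.95 and 4.92 in early primordia and 2.80, 3.00 and 4.06 in cortex and rose by 1.73 (SE 0.32, adjusted p = 0.0238). LOC4349885, similar to the influx carrier gene *LAX3*, had 3.40, 3.11 and 3.20 in early primordia, against 4.48, 4.25 and 3.89 in cortex, and fell by 0.97 (adjusted p = 0.0249). These 2 carriers of 1 family thus went opposite ways, both without overlap. Of 28 Aux/IAA genes, which encode repressors of the auxin response, only *IAA20* passed (-0.59, adjusted p = 0.0331), and of 19 auxin response factors only *ARF13* (-0.60, adjusted p = 0.0329), where 0.952% of all genes fell. In the brassinosteroid pathway the receptor gene *OsBRI1* rose by 0.95 (adjusted p = 0.0439) and the synthesis gene *OsDWARF11* by 0.95 (adjusted p = 0.0206), while *BRL2*, of a related receptor kinase, fell by 0.91 (adjusted p = 0.0146). After a second quantile normalization *OsBRI1* had an adjusted p of 0.544. None of 34 cytokinin genes passed, with a median change of -0.22, and -0.03 against cortex repetition 1. The response regulator genes *OsRR9* (-0.98) and *OsRR10* (-1.17) were the farthest from 0. Among 89 calcium signalling genes only *CML29*, a calmodulin-like gene, passed (-0.72), which is near the 0.952% of all genes that fell.

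Leaving tissue markers aside, 13 of the gene lists had no member past the test, 270 genes in all, with medians between -0.29 and 0.42. The lowest, of lipid transfer and cuticle genes, was -0.08 against cortex repetition 1. Lists hold only genes matched by symbol or locus, so they do not show that a whole family was unchanged. *ONAC041*, *OsLAX4* and 6 of 7 described protease inhibitor, seed storage or lipid transfer genes, given above, were called outside such lists. In the list of metal genes, *NAS3*, a nicotianamine synthase gene of iron transport, had 3.41, 5.68 and 3.71 in early primordia and 4.91, 8.30 and 6.33 in cortex. The groups overlapped, and repetition 2 was the highest on both sides (-2.25, adjusted p = 0.142, but 0.0434 with the replicate block). The metallothionein gene *MT2C* did not pass either (-1.02, adjusted p = 0.0589), but it did with the block (0.0276) and after a second quantile normalization (-1.58, adjusted p = 0.0443). No listed marker of shoot meristem, secondary wall or phloem passed, whereas *CAB2R*, *PSBW* and *CAB1R* of green tissue fell, as given above. The shoot meristem genes *OSH1* (-0.75) and *OSH15* (0.05), the secondary wall cellulose synthase genes *CESA4* (-0.58), *CESA7* (-0.19) and *CESA9* (-0.24) and the phloem sucrose carrier gene *OsSUT1* (-0.17) were not separated by the fit. The mean of the 3 secondary wall genes was 2.63 to 2.73 on early and 2.72 to 3.31 on cortex arrays, and *OsSUT1* lay between 2.30 and 2.62 on early and between 2.48 and 2.79 on cortex arrays, all near the array medians of 2.84 to 2.97. *OSH1* was at 3.58 to 3.74 on early arrays and at 3.82, 4.43 and 4.94 on cortex repetitions 1, 2 and 3. The part of such tissue in the results was not tested.

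**Figure D4:**
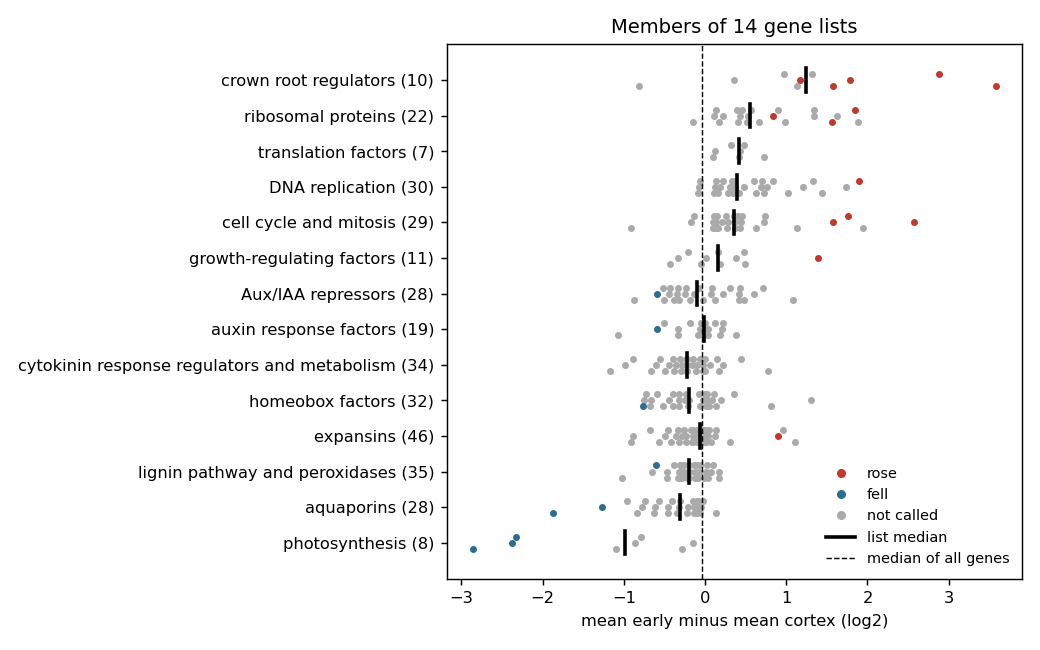
Change of every measured member of 14 gene lists, as mean early minus mean cortex signal (log2), with each list's median as a bar and called members in colour. Genes of CR regulation, ribosomal proteins, translation factors, DNA replication and the cell cycle sit mostly to the right of 0. Photosynthesis, aquaporin, cytokinin, homeobox, expansin and lignin pathway genes sit mostly to the left, and the other lists spread around 0. Against cortex repetition 1, the medians of these left-hand lists were -0.88, -0.12, -0.03, -0.04, 0.07 and -0.04, in the order named. Those of the right-hand lists were 0.87, 0.23, 0.25, 0.43 and 0.26.

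The levels were also set beside those of the older primordia. The risen genes had median levels of 5.80 on early, 5.78 on intermediate, 5.43 on late and 4.39 on cortex arrays, and the fallen genes 2.90, 2.80, 2.90 and 4.11. Early primordia against the mean of the intermediate and late stages gave 0 genes at the adjusted p in limma, the lowest being 0.127. At an unadjusted p under 0.05 in limma, 708 genes were higher (2.93%) and 616 lower (2.55%) in early primordia. Together they are 5.48% of the genes tested, near the share that this threshold passes with no difference. The single genes below are therefore given as levels only. This comparison uses the same early arrays as that with cortex, so the 2 are given side by side only. The lowest p for a higher early level belonged to LOC4337468, which has no description, with 4.38, 5.17 and 4.51 in early, 3.16, 2.71 and 3.38 in intermediate and 3.04, 2.95 and 2.96 in late primordia, and 2.77, 3.21 and 3.10 in cortex. It was high on the early arrays alone, by 1.65 over the later stages (adjusted p = 0.127) and 1.66 over cortex.

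LOC4349820, the gene described as histone H3.2, was at 2.58, 3.10 and 3.30 in intermediate and 2.74, 2.20 and 2.17 in late primordia. Its early mean was above the later stages by 2.17 (limma, adjusted p = 0.151) and above cortex by 2.46. *OsDWARF11* had 4.26, 4.55 and 4.59 in early, 3.71, 3.25 and 3.71 in intermediate and 3.47, 3.42 and 3.25 in late primordia, and 3.39, 3.74 and 3.41 in cortex. Its early level was the only one apart from the rest, by 0.99 over the later stages (adjusted p = 0.176). *OsSCR1* was at 2.97, 2.54 and 2.89 in intermediate and 3.32, 2.40 and 2.70 in late primordia and lay 1.19 higher in early primordia (adjusted p = 0.405). *PSK1* had 6.53, 6.00 and 7.39 in intermediate and 5.97, 5.66 and 4.04 in late primordia. One intermediate array thus overlapped with the early ones. All later arrays stayed above every cortex array, but late repetition 3 (4.04) only just above cortex repetition 1 (3.98). In the other direction, LOC4326970, with no description, was at 2.91, 3.38 and 3.43 in early primordia and at 5.35, 7.16 and 4.87 in intermediate and 5.44, 7.47 and 7.33 in late primordia. Its early level was that of cortex (3.51, 2.81 and 3.31) and lay 3.03 below the later stages (adjusted p = 0.402). *OsCOI1b*, a jasmonate receptor gene, was 0.88 lower and *OsPEX11-2*, a peroxisome division gene, 0.65 lower in early than in later primordia, with adjusted p values of 0.406 and 0.405.

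**Figure D5:**
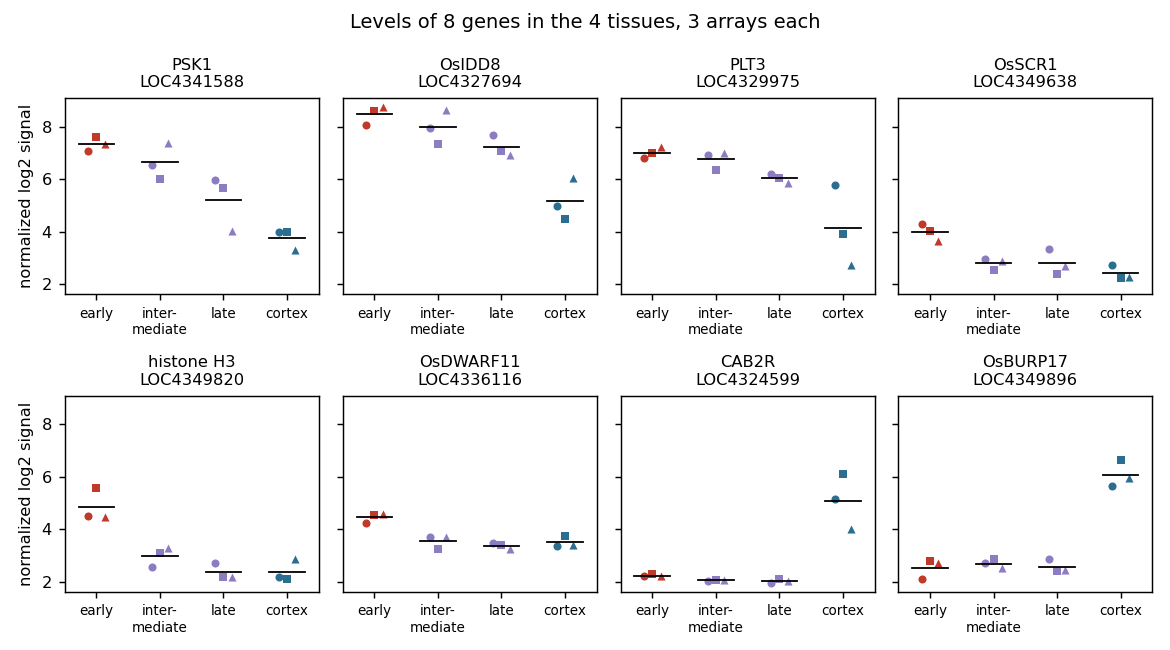
Log2 signal of 8 genes on each array of early, intermediate and late primordia and of cortex, with a bar at each mean and a symbol shape for each repetition. The histone LOC4349820, *OsDWARF11* and *OsSCR1* are highest on the early arrays, and *CAB2R* and *OsBURP17* are low in all primordia. *PSK1*, *OsIDD8* and *PLT3* have higher means in the older primordia than in cortex. Late repetition 3 of *PSK1* (4.04) is close to cortex repetition 1 (3.98).

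Of the 100 genes named by rule 55 passed the test, and 16 of these passed with each of the 6 arrays left out in turn. They were LOC4352303, *PSK1*, *OsIDD8*, LOC9272152, LOC4349820, *RPS27AB*, LOC4337468 and *RPS26* among the rises, and LOC4346246, *OsBURP17*, *CAB2R*, LOC9272028, LOC4345663, LOC9272001, *PSBW* and *OsPIP1;1* among the falls. LOC9272152, with no description, had 5.10, 5.14 and 5.29 in early primordia and 2.19, 2.21 and 2.27 in cortex. Each group agreed within 0.2, and the change of 2.95 (SE 0.34, adjusted p = 0.00705) was the same against every cortex array to within 0.1. Of all risen genes 157 had neither a name nor a description, as had 97 of the fallen ones. LOC9271482 is one described only as an expressed protein, with 8.48, 8.25 and 8.31 in early primordia and 3.42, 4.22 and 6.73 in cortex, where repetition 3 was the highest (3.56, adjusted p = 0.0306).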

How the data were processed

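The authors deposited 1 normalized log2 signal per probe set and array. The article names Robust Multi-array Average, the record GCRMA in Affymetrix Expression Console, and which made the values cannot be told. Of the 36643 probe sets 24161 carry 1 gene, 90 several and 12392 none in the array annotation, and the brighter of a gene's probe sets was kept. A group means model over all 12 arrays was fitted with limma 3.58.1 in R 4.3.3 (eBayes prior df 2.55, prior variance 0.0446), and p-values were adjusted by Benjamini-Hochberg over 24160 genes. The number of arrays, 3 a group, limits the precision.

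Members and gene lists were chosen with earlier results of these data known. Named genes are the 15 largest changes each way, the largest members of 33 lists, all CR regulators and tissue markers, and the 5 lowest p each way against the later stages. Further names were chosen after their values were seen. Descriptions came from a shortened supplementary table. Same-numbered arrays share plants, by the extraction protocol, but the deviations of same-numbered early and cortex arrays correlated at -0.315 to -0.0238, and those of intermediate and late arrays at 0.194 to 0.355. Over all pairs of groups, 7 of 18 same-numbered pairs were above 0.1. The study's methods name no block, so the block is an alternative. The fit was tested on simulated data with independent noise on each array. These held no shared plants and no shift of bright probe sets among cortex arrays, so that test does not cover either. Columns of the authors' comparisons and scans were not used, and promoter sequences were not analysed here.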

Additional observations from a re-analysis of the deposited data

Results flagged for a closer look

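Probe sets with no gene in the annotation lie outside the comparison of genes and also differed between the tissues. Of 12392 such probe sets 172 rose and 53 fell in early primordia at an adjusted p under 0.05 and a 1.5-fold change, 1.82% in all, and 181 of them kept a 1.5-fold gap to every cortex array. The largest rise was 4.79 and the largest fall -4.57 on the log2 scale. What they measure was not tested.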

How the results depend on the processing

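No alternative turned the direction of a named gene that had passed the test. Counts of rises and falls were 2 and 0 with only the 6 arrays compared (2 and 0 with the 1.5-fold gap), 237 rises (125 with the gap) after quantile normalization again, 223 rises with an intensity trend, 850 rises and 383 falls above the 20th percentile of mean signal (836 and 381 without overlap), 945 rises above its median (914 without overlap), 872 and 466 with array weights (778 and 417 without overlap), 21 (all with the gap) and 96 with cortex repetition 1 alone, and 1121 and 576 at an unadjusted p under 0.01 (1067 and 548 without overlap). Leaving out an array or a repetition gave 0 to 1332 rises and 0 to 1004 falls, and 0 to 1087 rises and 0 to 579 falls with the gap. The lowest counts came without repetition 2, and 9 and 12 remained without repetition 3. The replicate block gave 511 rises and 238 falls. It changed 9 calls of genes named by rule. All but LOC4325773, whose rise of 3.01 went to an adjusted p of 0.0545, are given beside the gene, and among other genes it ended the calls of *OsAGO4b*, *KIN14A*, *prx54* and LOC9269830 and no further call in the text. Quantile normalization again ended 20 of the 55 named calls. Among them were *RPL27*, *KRP5*, *OsRPA14*, *CKS1*, *PLT1*, *CAB1R*, *ARF13*, *OsLOL2*, *OsEXPB4*, LOC4332935 and LOC9271482. Quantile normalization again also ended the calls of *OsFLA1*, *OsGLU13*, *TUB2* and *OsSWIB* among the others. It gave a call to LOC4333627 and *MT2C*. A fit with cortex repetition 1 alone leaves a single cortex array, so a call lost there cannot be told from lost precision. Early against later primordia, 0 genes each way in limma, had 2 higher under either filter, 6 with array weights, and 104 higher and 57 lower at an unadjusted p under 0.01. Promoter motifs were not run, as no promoter sequence was used.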
